A study of Mus musculus with 18 samples.

Results

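The CXC chemokine genes described here are Cxcl1, Cxcl2, Cxcl3, Cxcl9, Cxcl10, Cxcl12, Cxcl14, Cxcl16, Pf4 and Ppbp. They were taken by symbol from the deposited gene table and make up 10 of its 53465 genes. RNA was measured by RNA-seq in sorted microglia and macrophages of 9 mice with a spinal cord injury, and each mouse gave 1 library of each cell type, 18 libraries in all. The mice were female C57BL/6J, 8 to 10 weeks old, and all had a contusion at thoracic vertebra 11. At 48 h after the injury, 3 mice received PBS (mice 1, 2 and 3), 3 received 100 ng of recombinant IL-13 (rIL-13; mice 5, 6 and 7) and 3 received 100 ng of recombinant IL-4 (rIL-4; mice 8, 9 and 10), injected into the cord. Cells were collected 24 h later. Microglia were gated as CD45low and macrophages as CD45high among CD11b+ F4/80+ cells. No uninjured mice were analysed here, so every value is from an injured cord, and the PBS groups had been injected as well.

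Chemokines are small secreted proteins that guide leukocytes through G protein-coupled receptors, and the CXC family is named after a pair of cysteines separated by another residue. Members with a Glu-Leu-Arg motif before these cysteines act on Cxcr2 and recruit neutrophils, whereas the interferon-inducible members act on Cxcr3 and recruit T and NK cells. In the injured spinal cord, chemokines from glia and infiltrating myeloid cells are known to bring neutrophils and monocytes from the blood.

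In GRCm38, 7 of the 10 genes lie on chromosome 5. In the GENCODE M21 annotation, Ppbp (chr5:90768518-90770063), Pf4 (chr5:90772435-90773383), Cxcl3 (chr5:90786103-90789600), Cxcl1 (chr5:90891241-90893115) and Cxcl2 (chr5:90903871-90905938) lie in this order on the plus strand. Cxcl9 (chr5:92321347-92328079) and Cxcl10 (chr5:92346638-92348889) lie farther along on the minus strand. The other three genes are apart from this cluster, with Cxcl12 at chr6:117168535-117181367, Cxcl14 at chr13:56288643-56296551 and Cxcl16 at chr11:70453983-70459984. Values are sums over all exons of each gene. Cxcl2 and Cxcl3 shared 100 of the 76-base words in their transcripts, the read length used, which was 4.52% of those of Cxcl2 and 2.75% of those of Cxcl3. Reads from such stretches could have been divided between the pair. No other member shared a word of this length with another gene.

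Promoter stretches are shown for 5 of the 6 genes in which known motif letters were found, to let their sequences be compared. RefSeq promoters of GRCm38.p6 were available for 9 of the 10 genes, and the 250 bases before each start were searched on both strands. The letters searched were GGANTTTCC for NF-kB, GAAANNGAA for the interferon-stimulated response element (ISRE), TTCNNNGAA for the STAT site known as GAS and TTCNNNNGAA for STAT6. These letters occurred in 1.07%, 7.13%, 7.02% and 5.85% of 32851 promoters, respectively. A match describes the sequence and does not show binding. Cxcl1, Cxcl2 and Cxcl3, from the same cluster, each carried the NF-kB letters, shown in capitals, in these 70-base stretches of the plus strand (chr5:90891155-90891224, chr5:90903783-90903852 and chr5:90786009-90786078):
Cxcl1: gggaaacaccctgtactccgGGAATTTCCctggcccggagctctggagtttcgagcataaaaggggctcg
Cxcl2: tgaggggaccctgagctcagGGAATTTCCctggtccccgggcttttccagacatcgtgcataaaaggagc
Cxcl3: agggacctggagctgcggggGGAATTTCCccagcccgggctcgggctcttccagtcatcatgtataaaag

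The matches began 70, 96 and 72 bases before the start of Cxcl1, Cxcl2 and Cxcl3, respectively. Cxcl10 held the ISRE letters and then the NF-kB letters, and Cxcl14 held the GAS letters and then the ISRE letters. Both stretches are on the minus strand (chr5:92349024-92349117 and chr13:56296700-56296757), with the matches in capitals:
Cxcl10: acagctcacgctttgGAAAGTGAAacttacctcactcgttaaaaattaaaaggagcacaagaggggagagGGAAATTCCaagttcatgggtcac
Cxcl14: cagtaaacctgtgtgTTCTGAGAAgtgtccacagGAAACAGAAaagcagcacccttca

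Cxcl9 held the ISRE letters beginning 175 bases before its start. Cxcl12, Pf4 and Ppbp had none of the searched letters in this window, and the STAT6 letters were found in none of the 9 promoters.

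Levels are given as CPM, the counts scaled to equal library size, after TMM normalization over the 18 libraries. Library totals ranged from 35961305 to 45849829 counts. Differences were tested with edgeR's quasi-likelihood test over all genes that passed a filter on low counts, and a gene was called at an adjusted p under 0.05. With 3 mice in a group, all p-values rest on the spread between few animals. In bulk RNA, fewer cells of a type and less RNA per cell cannot be told apart. The sum of 8 microglia markers was between 2384 and 9791 CPM in microglia and between 465 and 3737 CPM in macrophages, without overlap within any treatment. The sum of 6 markers of monocyte-derived macrophages was between 22.5 and 234 CPM in microglia and between 564 and 1926 CPM in macrophages. Markers of other cells were present, however. All 9 fibroblast and pericyte markers were detected in each microglia group, with sums between 231 and 7303 CPM, against 2.92 to 25.2 CPM in macrophages. The sum of 8 neutrophil markers reached 2796 CPM in rIL-13 macrophages of mouse 6, against 215 to 1269 CPM in the other macrophage libraries. Most of it came from S100a8 and S100a9, which reached 1424 and 895 CPM. Ngp and Camp went the other way, at no more than 67.6 and 12.0 CPM in any rIL-13 macrophage library. In PBS macrophages they were at least at 96.7 and 16.9 CPM. In these sums, both libraries of mouse 6 stood apart from those of mice 5 and 7. The injected cytokines were visible in known target genes, since Retnla and Chil3 were called higher with rIL-4 and with rIL-13 in both cell types.

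**Figure D1:**
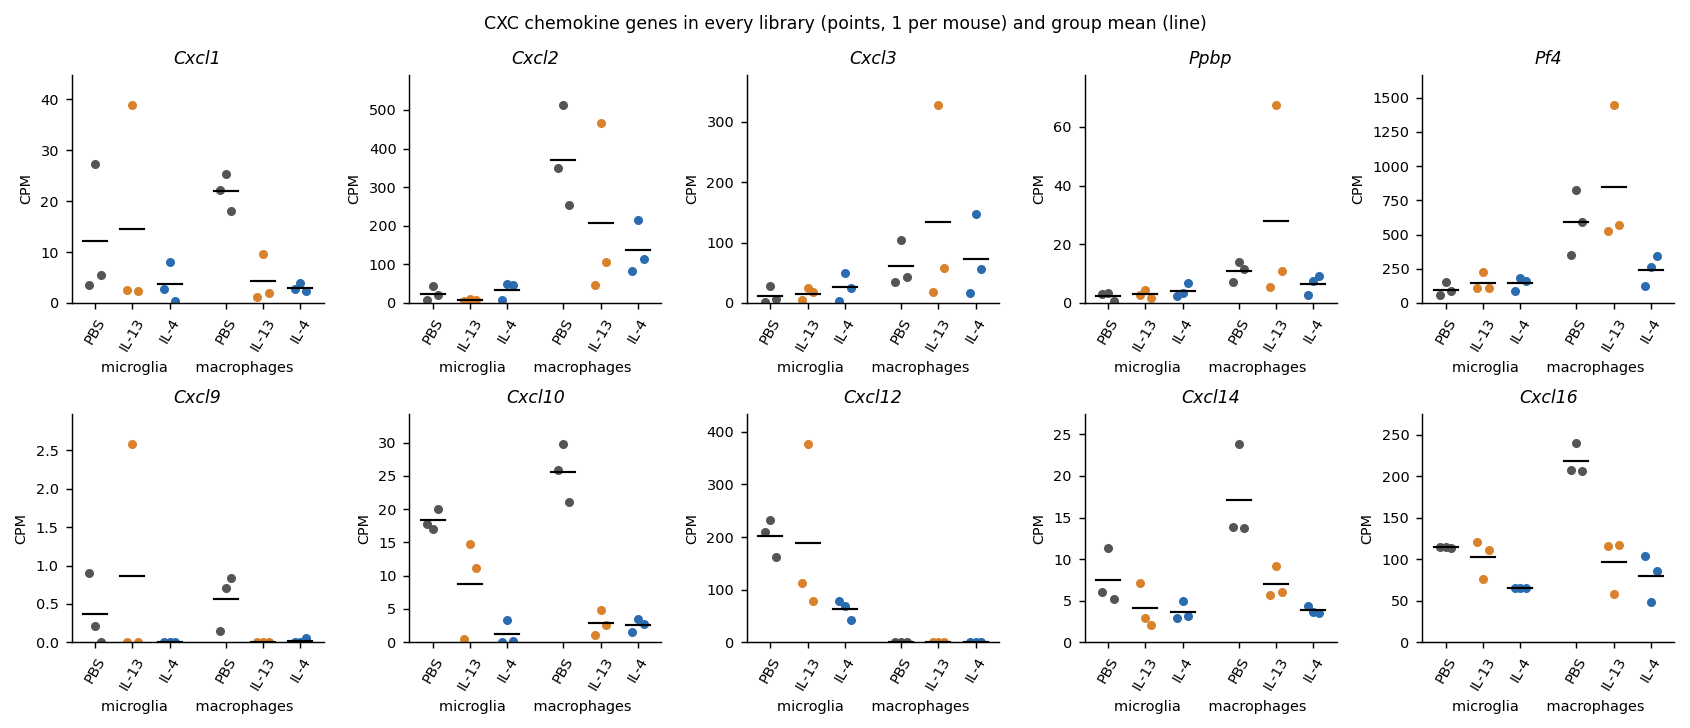
Level of each CXC chemokine gene in CPM (y axis, linear from 0) in the 6 groups, with 1 point per mouse and a line at the mean of 3 mice. In macrophages, Cxcl1, Cxcl10, Cxcl14 and Cxcl16 sit highest in the 3 PBS mice, and Cxcl12 is near 0 in all macrophage libraries.

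Pf4 was the most abundant member per length in all 6 groups. Per kilobase of exon, its level was between 134 ± 68.6 CPM in PBS microglia and 1174 ± 723 CPM in rIL-13 macrophages (mean ± SD, n = 3), and in no group did its range overlap that of the next gene. In macrophages, Cxcl2 followed with 180 ± 63.5 CPM per kb with PBS, and then Cxcl16 with 72.3 ± 6.34 CPM per kb. In PBS microglia, Cxcl16 (37.8 ± 0.250 CPM per kb) and Cxcl12 (24.6 ± 4.43 CPM per kb) followed Pf4, and the ranges of Cxcl12 and Cxcl2 overlapped. Cxcl9 was the lowest member in microglia with every treatment, at up to 0.855 CPM per kb in any library. In PBS macrophages, Cxcl12 was as low as Cxcl9, with 0.0881 ± 0.0617 and 0.185 ± 0.122 CPM per kb and overlapping ranges.

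**Figure D2:**
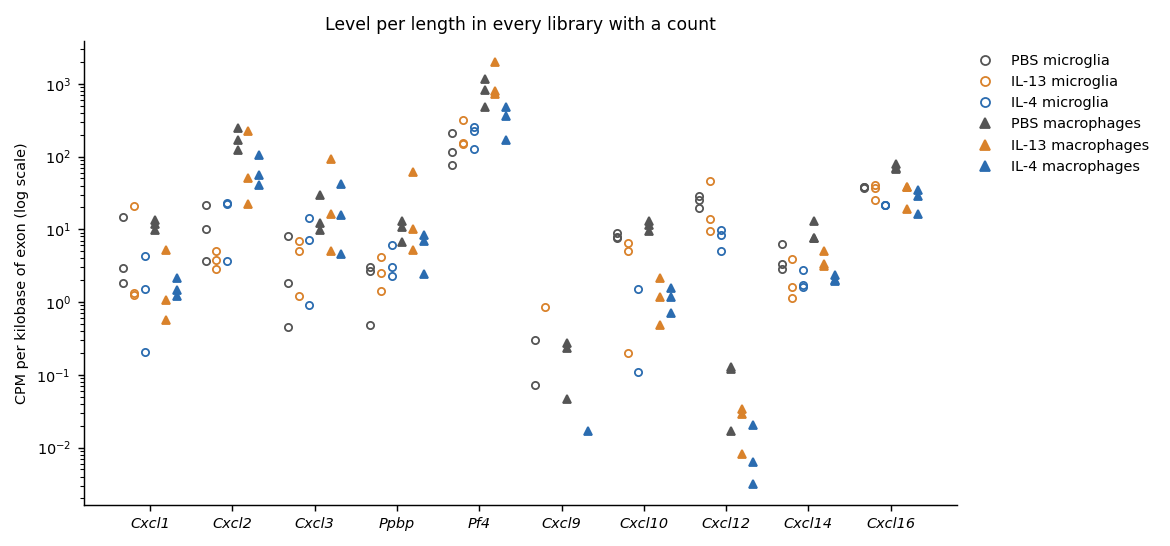
CPM per kilobase of exon (y axis, log scale) for each gene, with 1 symbol per library that had a count (open circles microglia, filled triangles macrophages, colours by treatment). Pf4 is highest throughout, and Cxcl12 shows the widest gap between the cell types.

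In macrophages, 4 of the 9 members tested fell with rIL-4, namely Cxcl1, Cxcl10, Cxcl14 and Cxcl16, and 0 were called higher by edgeR, by DESeq2 or at an unadjusted p under 0.05. Among all genes tested, 7.2% were called lower and 6.77% higher in this comparison. Of the 9 members, 8 had a negative log2 fold change, and their median was -1.46, against 0.02 over all genes tested. With rIL-13, 2 of 9 members were called lower, Cxcl10 and Cxcl14, where 1.66% of all genes were called lower. Of the 9 members, 6 had a negative log2 fold change, and the median of all 9 was -1.17. Both cytokines were compared with the same 3 PBS mice, so these comparisons share their controls. All 8 microglia markers were called lower with rIL-4 (median log2 fold change -3.73), with sums from 465 to 850 CPM against 2619 to 3737 CPM with PBS, and 2 of 8 were called lower with rIL-13. In sorted microglia, these 8 microglia markers also all had a negative log2 fold change, with a median of -1.49 with rIL-4 and -0.95 with rIL-13. In macrophages with rIL-4, all 8 neutrophil markers had a negative log2 fold change, of which 2 were called. So had the 7 fibroblast and pericyte markers tested, of which 3 were called. The part of these cells in the lower chemokine levels was not tested. Between rIL-4 and rIL-13 macrophages, 0 of 9 members were called by edgeR, where 0.25% of all genes were called. An unadjusted p under 0.05 was found for 3 members and 11.1% of all genes, and DESeq2 called 1 member, Pf4, and 3.09% of all genes. Counts with rIL-13 varied with single libraries, from 1 to 4 members, and without mouse 6 they were Cxcl1, Cxcl2, Cxcl10 and Cxcl14, beside 3.76% of all genes. When the spread was estimated from all 18 libraries, the calls were Cxcl14 and Cxcl16 with rIL-4, beside 6.37% of all genes, and Cxcl16 with rIL-13, beside 1.55%.

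In microglia, 0 of 10 members were called by edgeR with either cytokine or between them. Of all genes, edgeR called 2.22% with rIL-4, 0.366% with rIL-13 and 0.0385% between rIL-4 and rIL-13. An unadjusted p under 0.05 was found for 3 members with rIL-4 (16.4% of all genes), 0 with rIL-13 (7.76%) and 3 between the cytokines (11.4%). DESeq2 called 4 members with rIL-4, Cxcl9, Cxcl10, Cxcl12 and Cxcl16, beside 7.79% of all genes. It called 0 with rIL-13, beside 2.07%, and 3 between the cytokines, Cxcl9, Cxcl12 and Cxcl16, beside 3.65%. The sum of 8 microglia markers in these libraries was between 2384 and 4085 CPM with rIL-4, against 5458 to 9791 CPM with PBS. With rIL-13 it was between 2548 and 6564 CPM. Of the 8 markers, edgeR called 2 lower with rIL-4 and 0 with rIL-13. The part of this shift in the member levels was not tested.

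Between the cell types, Cxcl2, Cxcl3, Ppbp and Pf4 had higher levels in macrophages and Cxcl12 in microglia, each in all 9 mice. With PBS, Cxcl2, Ppbp, Pf4, Cxcl14 and Cxcl16 were called lower in microglia, 5 of 10 members, where 16.3% of all genes were lower. Cxcl12 was called higher, where 24.5% of genes were higher. With rIL-13, 3 of 9 members were called lower in microglia (Cxcl2, Ppbp and Pf4), beside 9.46% of all genes, and Cxcl12 was called higher, beside 17.2%. With rIL-4, Cxcl12 was called higher, beside 13.4% of genes, and 0 of 9 members were called lower by edgeR, beside 9.97%. Among the members, Cxcl2 alone was lower at an unadjusted p under 0.05, and DESeq2 called it, beside 29.3% of all genes in either direction. Microglia and macrophages of 1 number are from 1 mouse, so the comparison was also fitted with the mouse as a block. This pairing added Cxcl3 to the members called lower with PBS and with rIL-13, where 16.7% and 10% of genes were called lower, and it added Cxcl2, Cxcl3 and Pf4 with rIL-4, where 9.31% were. When cytokine responses were compared between the cell types, edgeR called 0 of 10 members for rIL-4 (0.992% of all genes) and for rIL-13 (0.0242%). Pf4 had an unadjusted p under 0.05 for rIL-4 (12.4% of all genes), and Cxcl9 and Cxcl16 had one for rIL-13 (5.83%). DESeq2 called Cxcl9 for both, beside 4.14% and 0.931% of all genes. These Cxcl9 results rest on few counts, which with rIL-13 were all in the microglia of mouse 6. With the mouse as a block, Pf4 was called for rIL-4, beside 1.14% of all genes, and no member for rIL-13, beside 0.0181%.

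Cxcl1, Cxcl2 and Cxcl3 are ligands of Cxcr2 that recruit neutrophils. Cxcl1 was at 22.3, 25.3 and 18.2 CPM in PBS macrophages of mice 1, 2 and 3. It was at 2.76, 3.99 and 2.31 CPM in rIL-4 macrophages of mice 8, 9 and 10, and at 1.08, 9.70 and 2.00 CPM in rIL-13 macrophages of mice 5, 6 and 7. All 6 cytokine-treated macrophage libraries were below all 3 PBS libraries. With rIL-4, Cxcl1 fell by 2.86 on the log2 scale (SE 0.65, edgeR adjusted p = 0.0164), to 0.138 of its PBS level in the fit. This call was lost without mouse 8 (adjusted p = 0.0520) or mouse 10 (adjusted p = 0.0704). With rIL-13, the log2 fold change was -2.36 (SE 0.64, adjusted p = 0.0712), and without mouse 6 it was -3.80 (adjusted p = 0.000503). In microglia, Cxcl1 varied among mice within each treatment, from 3.47 to 27.3 CPM with PBS, from 2.31 to 38.9 CPM with rIL-13 and from 0.381 to 8.06 CPM with rIL-4. These groups overlapped. The highest values were in mice 2, 6 and 9. With PBS, microglia differed from macrophages by -0.88 on the log2 scale (SE 0.65, adjusted p = 0.324), and by -2.34 without the microglia of mouse 2 (adjusted p = 0.000606).

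Cxcl2 had 349, 513 and 253 CPM in PBS macrophages, 83.3, 216 and 114 CPM in rIL-4 macrophages and 46.7, 466 and 105 CPM in rIL-13 macrophages. The rIL-4 libraries were all below the PBS libraries, but the adjusted p was 0.209. Among the rIL-13 libraries, mouse 6 was within the PBS range and the other two were below it. Without mouse 6, Cxcl2 was lower with rIL-13 by a log2 fold change of -2.27 (adjusted p = 0.0310), against -0.85 with all mice (adjusted p = 0.584) and -0.38 without mouse 5 (adjusted p = 0.835). In microglia, Cxcl2 had 7.56, 44.9 and 20.6 CPM with PBS, 5.92, 10.3 and 7.75 CPM with rIL-13 and 7.69, 48.2 and 46.8 CPM with rIL-4. The difference between rIL-4 and rIL-13 microglia was 2.12 on the log2 scale (SE 0.74, adjusted p = 0.369), and the groups overlapped through mouse 8.

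Within each mouse, Cxcl2 was higher in macrophages than in microglia, in 9 of 9 mice. The ratio ranged from 11.4 to 46.2 with PBS, from 7.88 to 45.3 with rIL-13 and from 2.43 to 10.8 with rIL-4. Microglia against macrophages gave a log2 fold change of -3.96 (SE 0.59, adjusted p = 0.000871) with PBS and -4.66 (SE 0.86, adjusted p = 0.00653) with rIL-13. It was -1.98 (SE 0.66, adjusted p = 0.0704) with rIL-4, and -2.25 (SE 0.42, adjusted p = 0.0159) with the mouse as a block. Without the microglia of mouse 8, the value with rIL-4 was -1.52 (adjusted p = 0.0388).

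Cxcl3 overlapped between all treatments in both cell types, and its spread among mice was wide. In macrophages it had 34.6, 104 and 43.4 CPM with PBS, 17.8, 328 and 57.1 CPM with rIL-13 and 16.0, 147 and 55.8 CPM with rIL-4. Mice 2, 6 and 9 were the highest of their groups, and these mice also had the highest Cxcl2 and the highest neutrophil marker sums, at 1269, 2796 and 724 CPM. Their sums of monocyte-derived macrophage markers were the highest of their groups as well (984, 1926 and 1663 CPM). Their microglia marker sums were the lowest (2619, 1065 and 465 CPM). All 8 neutrophil markers were detected in each macrophage group. The part of any of these cell types in the Cxcl2 and Cxcl3 values was not tested. Adjusted p-values of Cxcl3 in macrophages were 0.898 with rIL-4 and 0.607 with rIL-13. In microglia it had 1.61, 27.9 and 6.46 CPM with PBS, 4.26, 24.4 and 17.8 CPM with rIL-13 and 3.15, 49.7 and 25.3 CPM with rIL-4. Here too, mice 2, 6 and 9 were highest, but their neutrophil marker sums in microglia were the lowest of their groups (144, 87.4 and 104 CPM). Cxcl3 was higher in macrophages in 9 of 9 mice. With the mouse as a block, the log2 fold change of microglia against macrophages was -2.96 (SE 0.45, adjusted p = 0.00164) with PBS, -2.47 (SE 0.43, adjusted p = 0.0110) with rIL-13 and -1.64 (SE 0.27, adjusted p = 0.0102) with rIL-4. Without the block, these were -2.36, -3.08 and -1.45, with adjusted p-values of 0.0567, 0.0744 and 0.369. The PBS value was -3.98 without the microglia of mouse 2 (adjusted p = 0.00344) and -1.76 without the macrophages of that mouse (adjusted p = 0.187). With rIL-13 it was -3.62 without the macrophages of mouse 5 (adjusted p = 0.0405) and -1.30 without those of mouse 6 (adjusted p = 0.317). With rIL-4 it was -2.30 without the microglia of mouse 9 (adjusted p = 0.207) and -0.45 without its macrophages (adjusted p = 0.843).

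**Figure D3:**
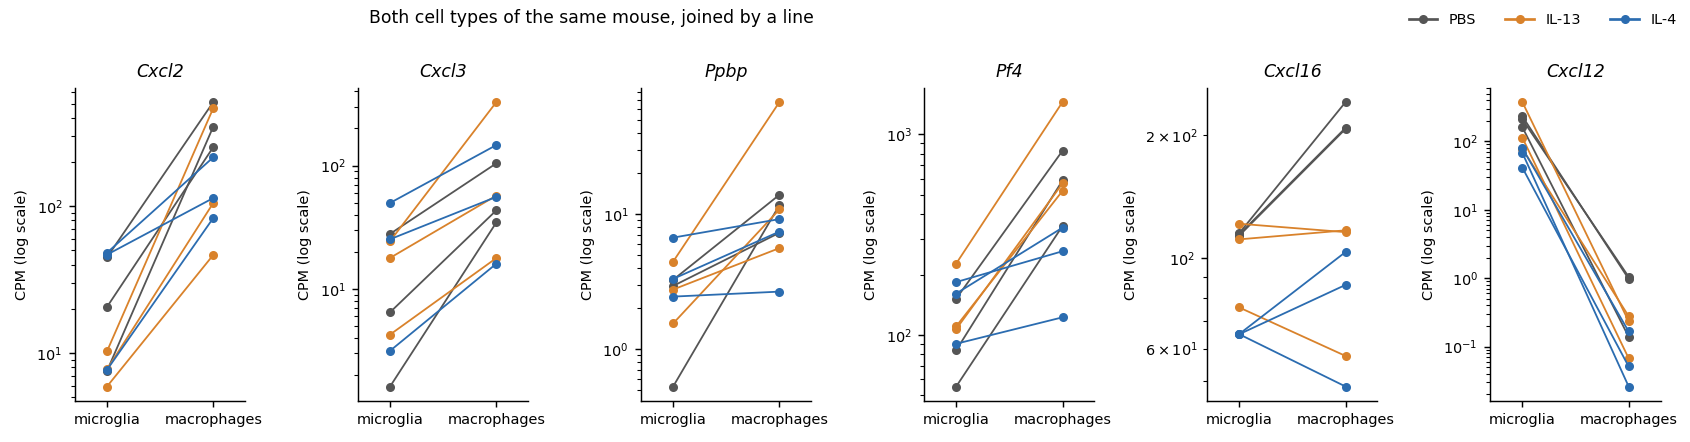
Level in CPM (y axis, log scale) of 6 members in microglia and macrophages, with a line joining both cell types of a mouse and colours by treatment. Cxcl2, Cxcl3, Ppbp and Pf4 rise from microglia to macrophages in all 9 mice, and Cxcl12 falls in all 9. Among the rising genes, Cxcl2, Ppbp and Pf4 have flatter lines in every rIL-4 mouse than in any PBS mouse. For Pf4 alone, they are also flatter than in any rIL-13 mouse.

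Ppbp encodes the precursor of a neutrophil-activating peptide stored in platelets. It was at 7.27, 13.9 and 11.6 CPM in PBS macrophages, 5.59, 67.4 and 10.8 CPM in rIL-13 macrophages and 2.67, 7.41 and 9.17 CPM in rIL-4 macrophages. Mouse 6 alone was above 13.9 CPM, and the groups otherwise overlapped. In microglia, Ppbp was between 0.529 and 6.69 CPM in every library. It was higher in macrophages in 9 of 9 mice, by 1.09 to 22.0 times. Microglia against macrophages gave -2.32 on the log2 scale (SE 0.60, adjusted p = 0.0136) with PBS, which was at an adjusted p of 0.0505 without the macrophages of mouse 2, and -3.23 (SE 0.95, adjusted p = 0.0415) with rIL-13. The call with rIL-13 was kept without the macrophages of mouse 5, and it was lost without any other single library, with adjusted p-values from 0.0531 to 0.159. Without the macrophages of mouse 6 the log2 fold change was -1.51, and with the microglia of mouse 5, 6 or 7 left out it was -3.21, -3.70 or -2.95. Between rIL-4 and rIL-13 macrophages, the log2 difference was -2.13 (SE 0.80, adjusted p = 0.352), and without mouse 6 it was -0.38 (adjusted p = 0.862).

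Pf4 encodes platelet factor 4, a chemokine of platelet granules that is also known in tissue macrophages at the borders of the nervous system. In PBS macrophages it had 349, 828 and 589 CPM, in rIL-13 macrophages 522, 1448 and 569 CPM, and in rIL-4 macrophages 122, 261 and 343 CPM. All 3 rIL-4 libraries were below all rIL-13 and PBS libraries. The log2 fold change with rIL-4 was -1.29 against PBS (SE 0.47, adjusted p = 0.101) and -1.81 against rIL-13 (SE 0.48, adjusted p = 0.172) in edgeR. DESeq2 called both, with adjusted p-values of 0.0236 and 0.00424. Without mouse 6 the difference from rIL-13 was -1.19 (adjusted p = 0.338). In microglia, Pf4 had 55.3, 152 and 83.9 CPM with PBS, 110, 227 and 107 CPM with rIL-13 and 90.4, 183 and 161 CPM with rIL-4. These groups overlapped, and the adjusted p was 0.583 with rIL-4 and 0.939 with rIL-13.

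The ratio of Pf4 in macrophages to that in microglia of the same mouse was 6.31, 5.46 and 7.02 with PBS. It was 4.73, 6.38 and 5.32 with rIL-13 and 1.35, 1.43 and 2.13 with rIL-4. The ratio was thus lower in each rIL-4 mouse than in any other mouse, and the PBS and rIL-13 mice overlapped. The 6 markers of monocyte-derived macrophages had sums in microglia from 127 to 234 CPM with rIL-4 against 22.5 to 85.1 CPM with PBS and 86.2 to 103 CPM with rIL-13, and 4 of them had a positive log2 fold change with rIL-4 and 2, Plac8 and Itgal, a negative one. F10 alone was called, from a mean of 10.6 CPM with PBS to 106 CPM with rIL-4, and it was also called higher with rIL-4 in macrophages (239 and 646 CPM). The part of such cells in the Pf4 ratio was not tested. Pf4 in microglia against macrophages had a log2 fold change of -2.63 (SE 0.41, adjusted p = 0.00104) with PBS, -2.49 (SE 0.49, adjusted p = 0.00866) with rIL-13 and -0.71 (SE 0.40, adjusted p = 0.264) with rIL-4. With the mouse as a block, the value with rIL-4 was -0.65 (SE 0.17, adjusted p = 0.0467). The rIL-4 response of Pf4 differed between the cell types by 1.86 on the log2 scale (SE 0.70, adjusted p = 0.267), and by 1.96 (SE 0.21, adjusted p = 0.00270) with the mouse as a block. For rIL-13, the blocked difference had an adjusted p of 1. The platelet and megakaryocyte markers were near 0 beside this gene. Their sum over 8 genes was between 0.183 and 1.47 CPM in macrophages and between 0.353 and 8.66 CPM in microglia, and Gp6, the platelet collagen receptor, was at 0 in all 6 groups.

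Cxcl9 and Cxcl10 are induced by interferons and act on Cxcr3. Cxcl9 was near the limit of detection. It had 5, 23 and 30 counts in PBS macrophages, 0 in all rIL-13 macrophages and 0, 0 and 2 in rIL-4 macrophages. A count of 0 allows up to 3 counts, which was between 0.0574 and 0.101 CPM in these libraries and covers counting error only. With 3 counts taken over the rIL-13 group, Cxcl9 was at least 18.5-fold lower with rIL-13 than with PBS. The gene did not pass the filter in macrophages and was not tested there. In microglia it had 37, 10 and 0 counts with PBS, 0, 123 and 0 counts with rIL-13 and 0 in all rIL-4 libraries. Of the 47 counts with PBS, 37 were from mouse 1, so no fold is given for microglia. In rIL-13 microglia, all counts were from mouse 6.

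Cxcl10 was at 25.9, 29.7 and 21.1 CPM in PBS macrophages, 1.08, 4.86 and 2.64 CPM in rIL-13 macrophages and 1.59, 3.52 and 2.66 CPM in rIL-4 macrophages. Both cytokine groups were below PBS without overlap. Cxcl10 fell by 3.30 on the log2 scale with rIL-4 (SE 0.47, edgeR adjusted p = 0.00154) and by 3.15 with rIL-13 (SE 0.47, adjusted p = 0.00551), to 0.101 and 0.113 of the PBS level in the fit. Both calls were kept when any 1 library was left out, but not with the spread of all 18 libraries (adjusted p = 0.124 and 0.293). Between the cytokines the groups overlapped (adjusted p = 0.938). In microglia, PBS libraries were close together at 17.8, 17.0 and 20.1 CPM. The rIL-13 libraries were at 0.445, 14.8 and 11.2 CPM and the rIL-4 libraries at 0, 3.41 and 0.245 CPM, all below PBS. The log2 fold change with rIL-4 was -3.86 (SE 1.57, adjusted p = 0.262). Leaving out 1 library at a time moved it between -7.21 and -3.28, and DESeq2 gave an adjusted p of 0.0443. With PBS, microglia were slightly lower than macrophages, with a log2 fold change of -0.51 (SE 0.18, adjusted p = 0.0514). This was called without the microglia (adjusted p = 0.0477) or the macrophages (adjusted p = 0.0434) of mouse 3, and DESeq2 gave 0.0349. With rIL-13, the value was 1.65 (SE 1.08, adjusted p = 0.319). It was 2.19 without the microglia of mouse 5 (adjusted p = 0.0443) and 1.03 without those of mouse 6 (adjusted p = 0.566).

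Cxcl12 is a homeostatic chemokine that acts on Cxcr4 and is scavenged by Ackr3, and stromal and endothelial cells are known sources. It was found in microglia libraries, with 210, 232 and 161 CPM with PBS, 113, 376 and 78.0 CPM with rIL-13 and 79.2, 68.0 and 41.3 CPM with rIL-4. In macrophages it ranged from 0.139 to 1.05 CPM with PBS, from 0.0674 to 0.278 CPM with rIL-13 and from 0.0261 to 0.167 CPM with rIL-4, where the libraries held 7, 1 and 2 counts. Cxcl12 in microglia against macrophages had a log2 fold change of 8.09 (SE 0.51, adjusted p = 1.09e-05) with PBS, 9.90 (SE 0.90, adjusted p = 0.000485) with rIL-13 and 9.53 (SE 0.57, adjusted p = 5.96e-05) with rIL-4. In microglia, all 3 rIL-4 libraries were below PBS, with a log2 fold change of -1.65 (SE 0.52, adjusted p = 0.159 in edgeR and 0.0115 in DESeq2). Against rIL-13 it was -1.56 (SE 0.52, adjusted p = 0.349), and these groups overlapped. Without mouse 6 this was -0.59 (adjusted p = 0.569). In macrophages the log2 fold change with rIL-4 was -3.07 (SE 0.96, adjusted p = 0.0588, and 0.0434 without mouse 3), at levels near the limit of detection.

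The sum of 9 fibroblast and pericyte markers moved with Cxcl12. In microglia of mice 1, 2 and 3 it was 2351, 3226 and 2430 CPM, in mice 5, 6 and 7 it was 1768, 7303 and 1195 CPM, and in mice 8, 9 and 10 it was 1509, 872 and 231 CPM. Mouse 6 was highest and mouse 10 lowest in both measures. All 9 markers were called higher in microglia than in macrophages with each treatment, with a median log2 fold change of 8.19 with PBS, and all 9 had a negative log2 fold change with rIL-4 in microglia, of which 1 was called. The sum of 6 endothelial markers was also higher in microglia, at 715 to 1568 CPM with PBS, 1344 to 2351 CPM with rIL-13 and 1695 to 2254 CPM with rIL-4, against 44.2 to 430 CPM in macrophages. With rIL-4 the sum was above PBS in microglia, but 3 of the 6 markers had a positive log2 fold change (Cldn5, Pecam1 and Flt1) and 3 a negative one (Kdr, Cdh5 and Tek), and 0 were called by edgeR (4 at an unadjusted p under 0.05). The part of these cells in the Cxcl12 values was not tested.

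**Figure D4:**
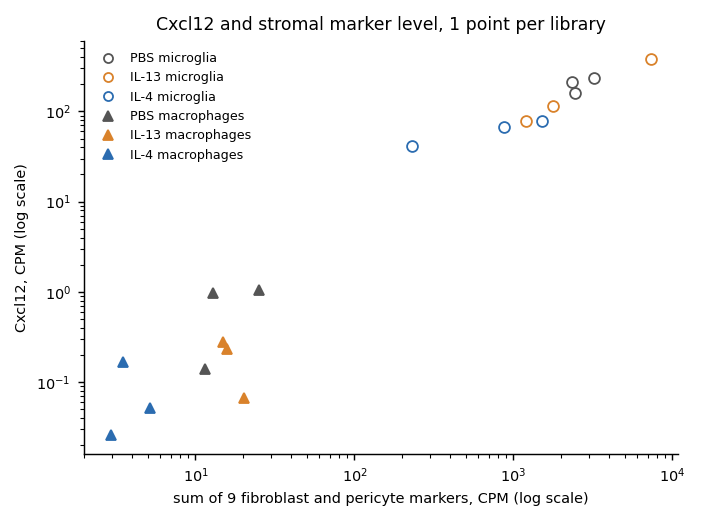
Cxcl12 in CPM (y axis) against the summed CPM of 9 fibroblast and pericyte markers (x axis), both on log scales, with 1 symbol per library (open circles microglia, filled triangles macrophages, colours by treatment). Macrophage libraries are at 25.2 CPM of markers or less, and among microglia Cxcl12 is highest where the markers are highest.

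Cxcl14 is a chemokine found in many resting tissues whose receptor is not settled. It was at 13.9, 23.9 and 13.7 CPM in PBS macrophages, 5.73, 9.14 and 6.09 CPM in rIL-13 macrophages and 4.35, 3.68 and 3.53 CPM in rIL-4 macrophages. The 3 groups did not overlap, and rIL-4 was lowest. Cxcl14 fell by 2.15 on the log2 scale with rIL-4 (SE 0.28, edgeR adjusted p = 0.000905) and by 1.29 with rIL-13 (SE 0.27, adjusted p = 0.0271). The call with rIL-4 was kept in 6 of 6 fits that left out a library and that with rIL-13 in 2 of 6. The latter was lost without mouse 2 (-0.98, adjusted p = 0.0990), mouse 3 (0.0503), mouse 5 (0.0882) or mouse 7 (0.0955). Between the cytokines, the log2 difference was -0.86 (SE 0.27, adjusted p = 0.249). In microglia, it was at 6.04, 11.4 and 5.22 CPM with PBS, 7.16, 2.96 and 2.08 CPM with rIL-13 and 2.97, 4.99 and 3.10 CPM with rIL-4. The rIL-4 libraries were below the PBS libraries, at an adjusted p of 0.506. With PBS, microglia were below macrophages, with a log2 fold change of -1.21 (SE 0.35, adjusted p = 0.0228), a call lost without the microglia of mouse 1 (0.0640) or mouse 3 (0.0616) or the macrophages of mouse 2 (0.0991).

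Cxcl16 is made as a transmembrane protein that also acts as a scavenger receptor and is shed as a ligand of Cxcr6. In PBS macrophages it was at 208, 241 and 207 CPM. It was at 116, 57.6 and 117 CPM in rIL-13 macrophages and at 103, 48.5 and 85.9 CPM in rIL-4 macrophages. All cytokine-treated macrophages were below PBS, and the cytokine groups overlapped. With rIL-4, Cxcl16 fell by 1.46 on the log2 scale (SE 0.31, edgeR adjusted p = 0.0127), a call kept in 6 of 6 fits that left out a library. With rIL-13 the log2 fold change was -1.17 (SE 0.31, adjusted p = 0.0691), and it was called by DESeq2 (adjusted p = 0.00442) and with all 18 libraries (adjusted p = 0.0365).

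In microglia, Cxcl16 was at 114, 115 and 113 CPM with PBS and at 65.1 CPM in each of the 3 rIL-4 libraries. With rIL-13 the spread was wider, at 121, 75.6 and 111 CPM. The log2 fold change with rIL-4 in microglia was -0.79 (SE 0.18, adjusted p = 0.0629), all 3 libraries were below PBS, and DESeq2 gave an adjusted p of 0.00115. Against rIL-13 it was -0.64 (SE 0.18, adjusted p = 0.308), also without overlap. With PBS, Cxcl16 was lower in microglia than in macrophages, with a log2 fold change of -0.97 (SE 0.11, adjusted p = 0.000175). With the cytokines the cell types overlapped, with adjusted p-values of 0.568 for rIL-4 and 0.857 for rIL-13. The rIL-13 response differed between the cell types by 1.02 (SE 0.38, adjusted p = 0.676).

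Other CXC ligands were scarce. Of Cxcl5, Cxcl11, Cxcl13, Cxcl15 and Cxcl17, Cxcl15 was at 0 in every group, and 0 of the 5 passed the filter in macrophages. Cxcl5, another ligand of Cxcr2, was called higher in PBS microglia (log2 difference from PBS macrophages 4.45, SE 1.11, adjusted p = 0.0115), at 0.391, 7.08 and 3.13 CPM against 0.0566 to 0.305 CPM. It reached 40.1 CPM in rIL-13 microglia of mouse 6, against 0 and 0.412 CPM in mice 5 and 7. Cxcl11, another ligand of Cxcr3, was called higher in rIL-13 microglia than in rIL-13 macrophages (adjusted p = 0.0135), at 0.772, 1.36 and 3.25 CPM against 0 to 0.0586 CPM.

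Of 8 CXC receptors, 5 were tested in microglia and 0 were called by edgeR with rIL-4 or rIL-13 (1 each at an unadjusted p under 0.05), and Cxcr3 was called lower in macrophages with both cytokines. Cxcr3, the receptor of Cxcl9 and Cxcl10, was at 2.35, 1.46 and 3.00 CPM in PBS macrophages, 0.573, 0.732 and 0.389 CPM with rIL-13 and 0.309, 0.209 and 0.384 CPM with rIL-4. Its log2 fold change was -2.90 with rIL-4 (SE 0.48, adjusted p = 0.00330) and -2.00 with rIL-13 (SE 0.46, adjusted p = 0.0414). The receptors of the Cxcr2 ligands and of Cxcl12 were found in macrophages. Cxcr2 was at 19.2, 56.9 and 32.0 CPM in PBS macrophages and between 0.0489 and 4.77 CPM in PBS microglia, with a log2 fold change of -4.33 (SE 1.06, adjusted p = 0.0106). It reached 161 CPM in rIL-13 macrophages of mouse 6, where the sum of the neutrophil markers was highest, although Ngp and Camp were below PBS there. Cxcr4 was at 53.2, 26.0 and 31.3 CPM in PBS macrophages and between 0.989 and 2.61 CPM in PBS microglia (-4.41, SE 0.43, adjusted p = 8.54e-05). Both were also called lower in microglia with rIL-4 and with rIL-13. Conversely, the atypical receptors Ackr1 and Ackr3, which take up chemokines without G protein signalling, were called higher in PBS microglia, with log2 fold changes of 6.61 (SE 0.81, adjusted p = 0.000288) and 2.32 (SE 0.30, adjusted p = 0.000374). With rIL-13, both means were also higher in microglia. With rIL-4 this held for Ackr1 (52.2 CPM in microglia and 0.0674 CPM in macrophages) but not for Ackr3. Ackr3 had means of 13.4 CPM in microglia and 16.9 CPM in macrophages with rIL-4, with overlapping libraries. Ackr1 is known from endothelial cells, whose markers were also higher in microglia.

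Among 4 proteases known to cut chemokines or to shed Cxcl16, 0 were called by edgeR with a cytokine in either cell type, and 0 in microglia and 1 (rIL-4) or 2 (rIL-13) in macrophages had an unadjusted p under 0.05. With PBS, Mmp9 and Adam17 were called lower in microglia. Ifng, the inducer of Cxcl9 and Cxcl10, was at 0 in 17 of the 18 libraries. Of the 7 other genes of the interferon-gamma axis, Ifngr1 and Jak2 rose in macrophages, by 1.07 and 2.56 on the log2 scale with rIL-4 and by 0.98 and 1.84 with rIL-13, and Irf8, a transcription factor of myeloid cells, fell by 0.59 with rIL-4. Of 7 genes of the NF-kB axis, Nfkbiz and Tnfaip3 fell with both cytokines in macrophages and Nfkb1 rose with rIL-4. Nfkbiz, an NF-kB cofactor, had a log2 fold change of -2.20 with rIL-4 (SE 0.52, adjusted p = 0.0186) and -2.18 with rIL-13 (SE 0.52, adjusted p = 0.0450). In microglia, 0 genes of these axes were called by edgeR with a cytokine. With rIL-4, 1 gene of each axis had an unadjusted p under 0.05, and with rIL-13 this was 2 and 1.

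Genes with the most similar pattern were sought among 11668 protein-coding genes over the 18 libraries, after centring log2 CPM within each cell type. Libraries of a mouse share treatment and animal, so r is a description without a test. The closest genes were Fosl1 for Cxcl1 (r = 0.831), Il1b for Cxcl2 (0.888), Il4ra for Cxcl3 (0.895), Tal1 for Cxcl10 (0.939) and Vps37b for Cxcl14 (0.896). They were Nlrc3 for Cxcl16 (0.948), followed by Kdr (0.943), Dnajc15 for Pf4 (0.862) and Mrpl33 for Ppbp (0.898). For Cxcl12 they were Vtn (0.877) and Bgn (0.844). Among the members themselves, Pf4 and Ppbp, which are neighbours on the chromosome, had r = 0.763. Cxcl1 and Cxcl12, which are on different chromosomes, had r = 0.733, and Cxcl2 and Cxcl3 had r = 0.712. Cxcl16 and Cxcl3 went the opposite way (r = -0.378).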

How the data were processed

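Microglia and macrophages from 9 mice gave 18 SMART-seq2 libraries (oligo-dT, low input, no molecular identifiers, no strand), sequenced as 76-base pairs. The authors mapped reads to GRCm38 with STAR 2.5.3a and deposited RSEM 1.3.0 expected counts per gene as whole numbers, without normalization, where reads matching several genes are divided between them. The annotation release was not given in the sources used here. Of 53465 gene IDs, 50604 matched GENCODE M21 with their version, including all 10 members. The members and lists were chosen with earlier results of these data known. All 10 members were described in every comparison.

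edgeR 4.0.16 (TMM, its filter on low counts, quasi-likelihood test, Benjamini-Hochberg adjustment over all genes kept, threshold 0.05) was run in R 4.3.3. Treatments were compared in the 9 libraries of a cell type, cell types in the 6 libraries of a treatment, and differences in response in all 18. SE is the log2 fold change divided by the square root of F. Levels are TMM CPM. Fold changes are given for members with an unadjusted p under 0.05 or a call in any fit, except where a compared group had 0 counts throughout, as for Cxcl9. Both cell types of a number are from the same mouse, as the labels state, so the mouse was also fitted as a block, although deviations of paired libraries correlated weakly (r = 0.018 to 0.093 over 16535 genes). Alternatives were DESeq2 1.42.0 and its size factors, no filter, all 18 libraries in each fit, and leaving out each library. Pattern neighbours are the genes kept in both cell types with the highest Pearson r of log2 CPM (prior count 2). Single genes of the pathway and check lists are not all reported here.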

Additional observations from a re-analysis of the deposited data

Results flagged for a closer look

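The rIL-4 response of Pf4 differed between microglia and macrophages when the mouse was fitted as a block, by 1.96 on the log2 scale (edgeR adjusted p = 0.00270), and this difference between cell types is what drew attention to it. Without the block the difference was 1.86 (adjusted p = 0.267), and between 1.53 and 2.34 when any 1 of 12 libraries was left out. All 3 rIL-4 mice had a lower ratio of macrophages to microglia than the other 6 mice.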

How the results depend on the processing

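The 41 fold changes carried through the alternatives were those with an unadjusted p under 0.05 or a call in any fit. They kept their direction in all 441 refits, which this choice and the shared libraries favour. In 21 refits a call was lost, and in 35 one was gained. Counts of called members changed as follows, each with the share of all genes called in that fit. DESeq2 called 4 members in microglia with rIL-4 (7.79%), 3 between rIL-4 and rIL-13 microglia (3.65%), 6 in macrophages with rIL-4 (19.6%) and 4 with rIL-13 (8.55%), 1 between rIL-4 and rIL-13 macrophages (3.09%), 7, 2 and 5 between PBS, rIL-4 and rIL-13 cell types (44.3%, 29.3% and 33.1%), and 1 in each test of a difference in response (4.14% and 0.931%). Without the filter, 6 members were called in macrophages with rIL-4 (8.72%), 5 with rIL-13 (3.26%), 7 between PBS cell types (25.8%) and 1 between rIL-4 and rIL-13 macrophages (0.896%). With all 18 libraries in the fit, the count was 2 in macrophages with rIL-4 (6.37%), 1 with rIL-13 (1.55%) and 4 between PBS cell types (25.6%). With the mouse as replicate block, it was 4 between rIL-4 cell types (20.6%), 1 for the rIL-4 difference in response (Pf4, 1.14%), 7 between PBS cell types (40.2%) and 5 between rIL-13 cell types (25.4%), and this pairing changed no other call. Leaving out a library gave 1 to 4 members in macrophages with rIL-13 (1.41% to 3.76%), 1 to 2 between rIL-4 cell types (11.7% to 26.4%), 3 to 5 in macrophages with rIL-4 (7.39% to 11.4%), 4 to 8 between PBS cell types (30.1% to 39.8%) and 3 to 5 between rIL-13 cell types (14.3% to 27.4%). With DESeq2 size factors in edgeR, the number of called members was the same in all 9 comparisons between groups. The cause of these shifts was not tested. Cxcl9 had 58 counts or fewer in any macrophage group, so its results rest on few counts.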
